A study of Mus musculus with 6 samples.

Results

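The 6 genes followed here belong to the follicular helper T (Tfh) programme: Bcl6 and Prdm1, which encode its opposing transcription factors, the cytokine gene Il21, the chemokine receptor gene Cxcr5 and the transcription factor genes Maf and Ascl2. They were picked by name, as rows of the deposited table of normalized signal whose gene symbol matched 1 of the 6 names. That table holds 13564 genes, and 5 of the 6 were among them. Ascl2 was missing from it, and its values were read from the count files, which hold 55487 genes.

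The libraries were made from the progeny of CD4N cells, that is naive CD4 T cells sorted from mouse lymph nodes as CD44 negative or low and Foxp3-GFP negative. In Foxo1TKO mice (CD4cre Foxo1 fl/fl) Cre recombinase removes the transcription factor Foxo1 from the double-positive stage of thymic development onwards, so that the whole T-cell compartment of the donor mouse lacks it and not the cultured cells alone. Foxo1Ctrl mice were Foxo1 fl/fl littermates without Cre, and both genotypes were young adults on a C57BL/6 Foxp3-GFP background. CD4N cells of both genotypes were stimulated alike for 4 days, with 0.1 µg/ml of the soluble anti-CD3 clone 145-2C11. The cells that presented the antibody were 250000 splenocytes, taken from CD3ε KO mice and therefore devoid of T cells. RNA-seq gave 3 libraries per genotype, and whether they came from separate mice or cultures is not stated in the sources used here, so that the p-values below measure the spread between these libraries, which may be technical. No Tfh-polarizing cytokine was named in the culture, and the added splenocytes are a source of B cells.

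Tfh cells are the CD4 T cells that enter B-cell follicles and help germinal centre B cells. Bcl6 is a transcriptional repressor required for this fate, Prdm1 encodes Blimp-1, a repressor that drives effector and plasma cell differentiation, and each factor represses the gene of the other. IL-21, CXCR5, c-Maf and Ascl2 belong to the effector side of the programme: the cytokine made for B cells, the receptor that follows CXCL13 into the follicle and a pair of factors that act on the Il21 and Cxcr5 genes. Foxo1 is known to restrain Tfh differentiation and to maintain transcription of genes of naive T-cell trafficking.

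The libraries held between 14783853 and 19675407 counts. Foxo1 itself was at 101, 53 and 107 counts in the 3 Foxo1TKO libraries and at 1282, 1998 and 1649 counts in the 3 Foxo1Ctrl libraries, a log2 fold change of -4.45 (SE 0.36, adjusted p = 0.000195, edgeR), so all 6 libraries matched their labels. T-cell genes were abundant in both genotypes, with a summed level of the 8 T cell markers of 5846 to 6549 TPM (counts scaled for gene length and depth) in Foxo1TKO and 7136 to 7215 TPM in Foxo1Ctrl. Of the CD8 T cell genes, Cd8a did not exceed 32 counts in any library, while Cd8b1 had 112, 133 and 85 counts in Foxo1TKO and 121, 140 and 164 in Foxo1Ctrl (log2 fold change -0.61, adjusted p = 0.0856). RNA of marker genes of other cell types was present as well, and some of it differed between genotypes, as given below. Whether it came from those cells was not tested.

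Of the 5 genes that could be tested, Bcl6 was higher in Foxo1TKO cells, Prdm1 and Il21 were lower, and Cxcr5 and Maf did not pass the test. To be called, a gene had to pass 0.05 by its adjusted p and 1.5-fold by its size. These 3 calls (1 higher, 2 lower) stand beside 23.0% of the 13691 genes tested that were called, 11.1% higher and 11.8% lower in Foxo1TKO. The same 3 genes had no overlap between genotypes, which was so for 42.7% of all genes tested. With 5 genes, a share called above that of the whole transcriptome is not a result in itself, and the values of each gene are what follows. In RNA from a whole culture, a gene that is lower because fewer cells of a type are present and one that is lower because each cell holds less of its RNA cannot be told apart.

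**Figure D1:**
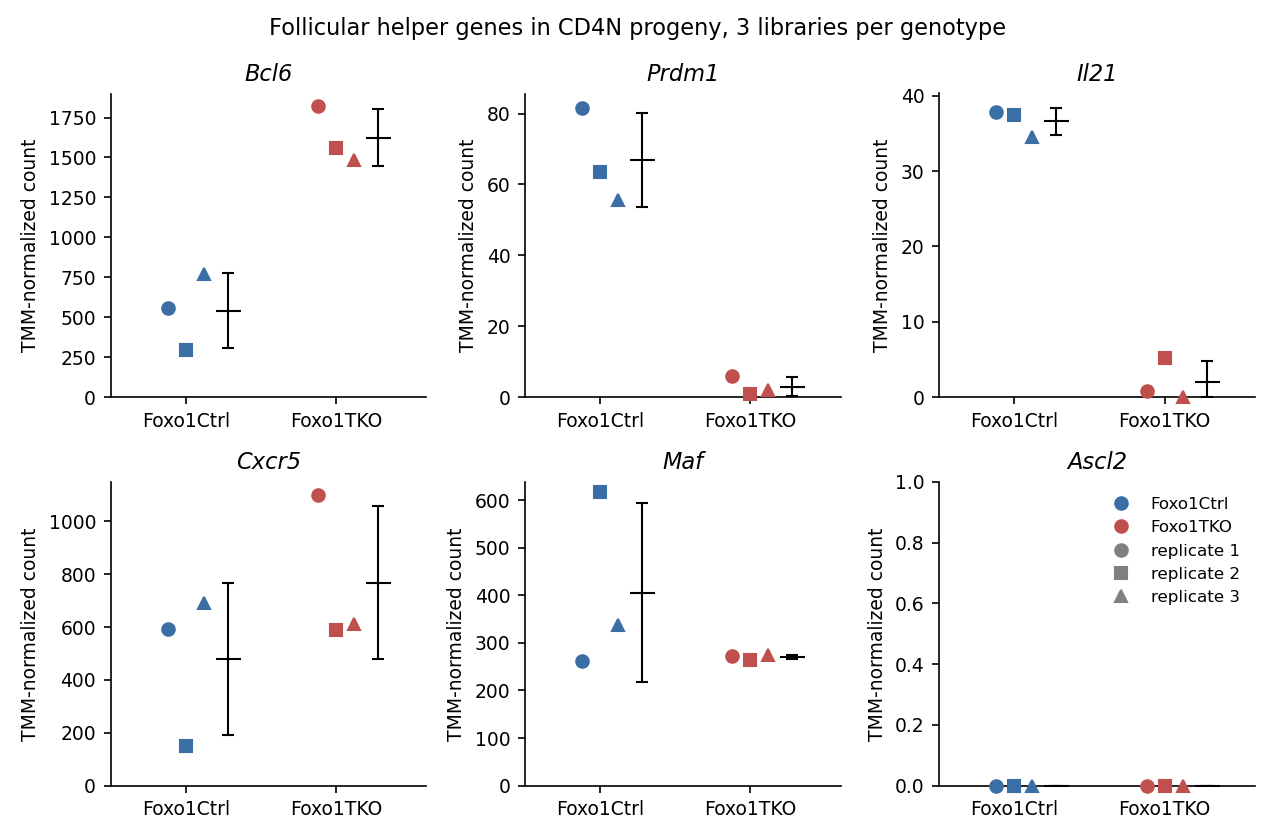
TMM-normalized counts (y axis, linear, counts scaled to a common library size) of the 6 genes in each library of Foxo1Ctrl (blue) and Foxo1TKO (red), with the symbol marking the replicate number and the bar the mean and SD of 3 libraries, drawn no lower than 0. Bcl6 lay between 1487 and 1824 in Foxo1TKO and between 296 and 770 in Foxo1Ctrl, Prdm1 and Il21 were near 0 in Foxo1TKO, Cxcr5 and Maf overlapped between genotypes, and Ascl2 had no count.

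Bcl6 (ENSMUSG00000022508, GRCm38 chr16:23965052-23988852, minus strand) was the highest of the 6 genes in Foxo1TKO cells. Its normalized counts were 1824, 1558 and 1487 in Foxo1TKO replicates 1, 2 and 3 and 560, 296 and 770 in Foxo1Ctrl replicates 1, 2 and 3. Every Foxo1TKO library was above every Foxo1Ctrl library, and the control libraries were the more scattered group. The means were 1623 ± 178 (SD, n = 3) and 542 ± 237 (SD, n = 3), and the fitted log2 fold change was 1.58 (SE 0.32, 95% interval 0.84 to 2.32, adjusted p = 0.00998, edgeR), or 2.99-fold. Leaving out any 1 library kept it called, with log2 fold changes of 1.30 to 1.92.

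Prdm1 (ENSMUSG00000038151, chr10:44437177-44528501, minus strand) fell in the opposite direction and further. It had 7, 1 and 2 counts in the Foxo1TKO libraries and 69, 56 and 58 counts in the Foxo1Ctrl libraries. The control value was thus low but even, and the Foxo1TKO value was close to the limit of detection, which is 3 counts or between 0.152 and 0.203 CPM (counts scaled to library depth). The log2 fold change was -4.08 (SE 0.52, 95% interval -5.29 to -2.87, adjusted p = 0.00143, edgeR). The summed counts, scaled by the summed library sizes, differed by 21.7 times, with an exact binomial 95% interval of 11.5 to 46.0 that covers counting error only. Without any 1 library the gene was still called, at log2 fold changes from -4.78 (without Foxo1TKO replicate 1, the library with 7 counts) to -3.71 (without Foxo1TKO replicate 2).

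The RefSeq sequences before the starts of Prdm1, Bcl6 and Il21 are shown because the 3 genes differed between genotypes and because the factor removed from Foxo1TKO cells binds a short DNA motif. Each is the 250 bases directly upstream of the RefSeq start (GRCm38.p6, all on the minus strand), at chr10:44458749-44458998 for Prdm1, chr16:23988853-23989102 for Bcl6 and chr3:37232637-37232886 for Il21. Capitals mark the forkhead motif GTAAACA, searched on both strands.
Prdm1: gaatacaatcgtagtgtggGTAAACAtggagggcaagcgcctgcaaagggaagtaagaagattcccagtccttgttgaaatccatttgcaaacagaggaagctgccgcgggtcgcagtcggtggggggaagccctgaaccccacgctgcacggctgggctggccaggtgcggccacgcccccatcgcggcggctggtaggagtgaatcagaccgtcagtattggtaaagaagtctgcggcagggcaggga
Bcl6: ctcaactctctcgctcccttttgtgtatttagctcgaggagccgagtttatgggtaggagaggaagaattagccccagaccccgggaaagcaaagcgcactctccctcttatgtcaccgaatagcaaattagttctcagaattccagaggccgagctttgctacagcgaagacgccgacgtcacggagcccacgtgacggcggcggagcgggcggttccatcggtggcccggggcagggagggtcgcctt
Il21: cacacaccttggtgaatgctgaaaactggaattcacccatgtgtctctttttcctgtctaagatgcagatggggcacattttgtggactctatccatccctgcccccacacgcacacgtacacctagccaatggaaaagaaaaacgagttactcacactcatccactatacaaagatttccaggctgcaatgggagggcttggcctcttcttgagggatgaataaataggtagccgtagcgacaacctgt
The Prdm1 window held the forkhead motif 1 time, 231 bases before the start, where 3.17% of 32851 RefSeq promoter windows of the same 250 bases held it at least 1 time. The Bcl6 and Il21 windows did not hold these letters. The Bcl6 motif TTCCTAGAA was in none of the 3 windows and in 0.347% of all windows. The E-box CANNTG, the motif of Ascl2 and other basic helix-loop-helix factors, was in all 3, as in 66.2% of all windows, and no E-box overlapped the forkhead motif. The Prdm1 window lies inside the gene as GENCODE draws it, since that annotation has transcripts that start further upstream. Bcl6 has another RefSeq start, whose window holds none of the 3 motifs. RefSeq windows were found for 4 of the 6 genes, and those of Cxcr5 and Maf were not among the sequences used.

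The balance of the opposing factors was then read within each library. TPM is scaled for gene length, so the levels of both genes can be divided by each other, and the ratio does not depend on how libraries are scaled to each other. Bcl6 stood at 39.9, 30.7 and 27.4 TPM in the Foxo1TKO libraries and at 11.4, 5.03 and 15.7 TPM in the Foxo1Ctrl libraries. Prdm1 stood at 0.09, 0.02 and 0.10 TPM in Foxo1TKO and at 1.10, 1.07 and 0.90 TPM in Foxo1Ctrl. The ratio of Bcl6 to Prdm1 was therefore 443, 1534 and 274 in the Foxo1TKO libraries and 10.4, 4.70 and 17.4 in the Foxo1Ctrl libraries. Bcl6 was above Prdm1 in every library of both genotypes, and the ranges of the ratio did not overlap. On the log2 scale the mean ratio was 9.16 ± 1.28 (SD, n = 3) in Foxo1TKO and 3.24 ± 0.95 (SD, n = 3) in Foxo1Ctrl, a difference of 5.91, or 60.3-fold. The spread among Foxo1TKO libraries rests on Prdm1 counts of 1 to 7. TPM is scaled by an effective length per library, and at such counts it did not follow them. Replicate 1 with 7 counts was at 0.09 TPM and replicate 3 with 2 counts at 0.10 TPM. The order of the Foxo1TKO ratios is therefore not settled. From counts without length, the log2 difference was 6.58. No test was run on the ratio, because it was formed from genes whose direction was known, and a two-sided exact permutation test of 3 libraries against 3 cannot go below 0.1.

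**Figure D2:**
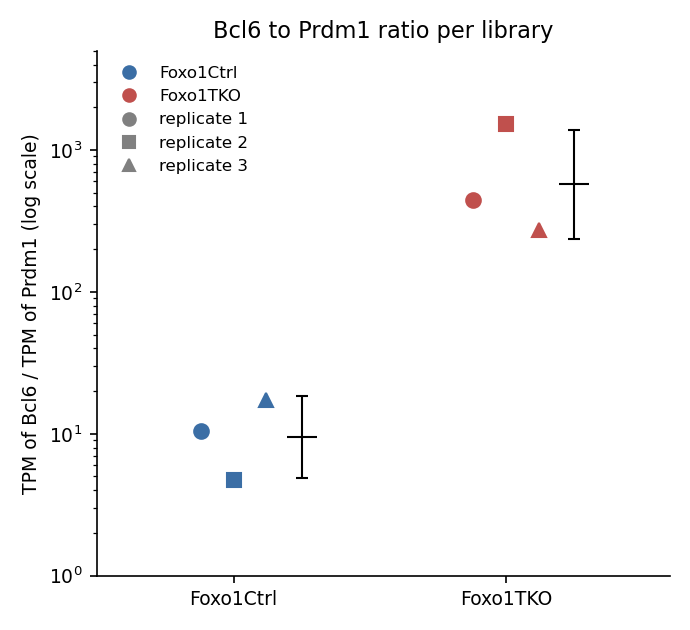
Ratio of Bcl6 TPM to Prdm1 TPM (y axis, log scale) in each library of Foxo1Ctrl (blue) and Foxo1TKO (red), with the bar at the geometric mean and 1 SD of the log2 ratio (n = 3). The control libraries sit between 4.70 and 17.4 and the Foxo1TKO libraries between 274 and 1534.

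Il21 (ENSMUSG00000027718, chr3:37222759-37232636, minus strand) is a product of Tfh cells, and it did not move with Bcl6. Its counts were 1, 6 and 0 in the Foxo1TKO libraries and 32, 33 and 36 in the Foxo1Ctrl libraries. The controls were within 4 counts of each other, and all Foxo1TKO libraries were below all of them. The log2 fold change was -3.61 (SE 0.67, 95% interval -5.16 to -2.06, adjusted p = 0.00705, edgeR). The summed counts, scaled by the summed library sizes, differed by 17.1 times (exact binomial 95% interval 8.01 to 43.6, counting error only). Leaving out 1 library at a time kept the call each time and gave log2 fold changes from -4.66 (without Foxo1TKO replicate 2, the library with 6 counts) to -3.24 (without Foxo1TKO replicate 3). Even in Foxo1Ctrl the gene was at 1.06 to 1.63 TPM.

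Cxcr5 (ENSMUSG00000047880, chr9:44511787-44561877, minus strand), the receptor gene by which Tfh cells are sorted, could not be placed in either direction. Its normalized counts were 1101, 588 and 612 in Foxo1TKO and 592, 151 and 691 in Foxo1Ctrl. Foxo1TKO replicate 1 was the highest and Foxo1Ctrl replicate 2 the lowest library, while the other 4 lay between 588 and 691 whatever their genotype. The log2 fold change was 0.68 (SE 0.51, 95% interval -0.50 to 1.87, adjusted p = 0.383, edgeR), an interval that reaches from a moderate loss to a gain larger than that of Bcl6. It was 0.28 without Foxo1Ctrl replicate 2 and 0.32 without Foxo1TKO replicate 1 (adjusted p = 0.547 and 0.709), against a range of adjusted p of 0.0907 to 0.709 over all alternatives.

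Maf (ENSMUSG00000055435, chr8:115682942-115707794, minus strand) encodes c-Maf, which acts on Il21 and Il10 in several helper subsets. It was even in Foxo1TKO, at 272, 265 and 274 normalized counts, and scattered in Foxo1Ctrl, at 261, 618 and 338. The Foxo1TKO libraries all lay within the range of the controls. The log2 fold change of -0.59 (SE 0.31, 95% interval -1.31 to 0.13, adjusted p = 0.217, edgeR) rested on Foxo1Ctrl replicate 2, without which it was -0.14 (adjusted p = 0.646, against 0.107 to 0.646 over all alternatives).

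The libraries that set the values of Cxcr5 and Maf also stood apart in base composition. Within a library, normalized counts rose with the GC content of the gene by 0.326 (log2 per 10 percentage points of GC, relative to the mean of the libraries) in Foxo1TKO replicate 1 and fell by 0.377 in Foxo1Ctrl replicate 2, while the other 4 libraries were between -0.0767 and 0.0925. The longest transcripts of Cxcr5, Bcl6 and Maf hold 52.5%, 50.6% and 47.4% GC, with a median of 48.7% over the genes tested. With GC content corrected per library, the log2 fold changes were 0.65 for Cxcr5 (adjusted p = 0.320), -0.53 for Maf (adjusted p = 0.232) and 1.57 for Bcl6 (adjusted p = 0.00454), so that no call changed. The part of base composition in the scatter of single libraries was not tested further.

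**Figure D3:**
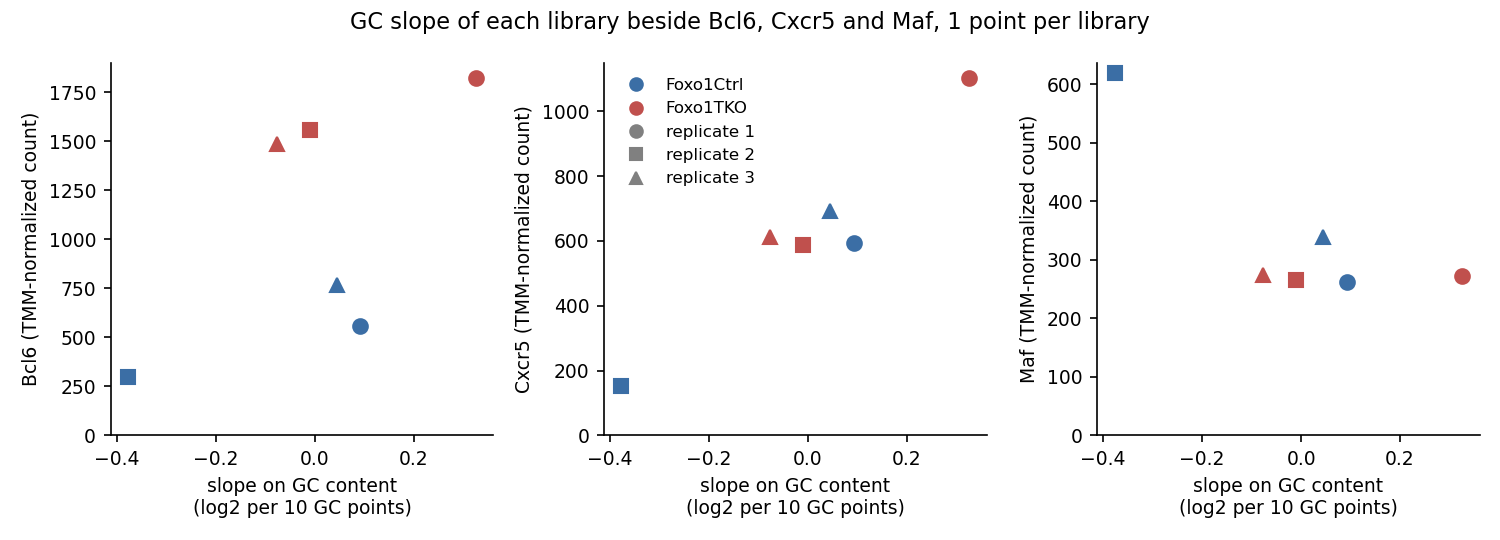
Normalized counts (y axis, linear) of Bcl6, Cxcr5 and Maf in each library against the slope of that library's counts on GC content (x axis, log2 per 10 GC points). Foxo1Ctrl replicate 2, with the slope of -0.377, has the lowest Bcl6 and Cxcr5 values and the highest Maf value, and Foxo1TKO replicate 1, with the slope of 0.326, has the highest Bcl6 and Cxcr5 values.

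Ascl2 (ENSMUSG00000009248, chr7:142966829-142969264, minus strand), a basic helix-loop-helix factor that can switch on Cxcr5, had 0 counts in all 6 libraries. A count of 0 allows up to 3 counts per library, that is 0.152 to 0.203 CPM. Cxcr5 RNA was thus detected in every library at 4.17 to 38.0 TPM without detectable Ascl2. No fold change or test could be given for it.

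The order of the 6 levels differed between genotypes. In Foxo1Ctrl it ran, as mean TPM, from Cxcr5 at 17.2 ± 11.4 through Bcl6 at 10.7 ± 5.35 and Maf at 5.74 ± 1.98 to Il21 at 1.38 ± 0.291, Prdm1 at 1.02 ± 0.108 and Ascl2 at 0 (SD, n = 3 each). Neighbours overlapped between Cxcr5 and Bcl6, between Bcl6 and Maf and between Il21 and Prdm1, so only the step from Maf down to Il21 and that from Prdm1 to Ascl2 separated all libraries. In Foxo1TKO the order was Bcl6 at 32.7 ± 6.48, Cxcr5 at 24.4 ± 11.8, Maf at 3.72 ± 0.350, Prdm1 at 0.070 ± 0.0436 and Il21 at 0.0467 ± 0.0643 TPM. Here Bcl6 and Cxcr5 overlapped, as did Prdm1 and Il21, while Maf stood clear of both pairs.

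Bcl6 and Cxcr5 are also genes of B cells, and Prdm1 of plasma cells, and the culture held splenocytes. Of 13 B cell markers, 10 could be tested, of which 6 were lower in Foxo1TKO and the other 4 did not pass. Over all genes tested, 11.8% were called lower in Foxo1TKO. Their summed level was 9.70 to 12.7 TPM in Foxo1TKO and 31.7 to 38.0 TPM in Foxo1Ctrl, with Cd79b and Cd79a the most abundant and none of the 13 at 0 in all libraries. The part of B cell RNA in the Bcl6 and Cxcr5 values was not tested. Of 7 plasma cell markers, 5 were tested and 4 were lower, or 80.0% beside the same 11.8%. The sums were 594 to 818 TPM in Foxo1TKO and 1604 to 2117 TPM in Foxo1Ctrl, most of it Igkc and Ighm. Jchain, which joins secreted antibody units, had 357, 969 and 682 counts in Foxo1TKO and 1295, 1995 and 1432 in Foxo1Ctrl (log2 fold change -1.47, adjusted p = 0.0262), a call lost without Foxo1Ctrl replicate 1 or 2 or Foxo1TKO replicate 3 (-1.59 to -1.22, adjusted p = 0.0510 to 0.0562). Mzb1, a chaperone gene of antibody-secreting and marginal zone B cells, had 52, 112 and 55 counts in Foxo1TKO and 292, 196 and 275 in Foxo1Ctrl (log2 fold change -2.04, adjusted p = 0.00460). Xbp1, the tested marker that was not called, did not differ, at a mean of 103 TPM in Foxo1TKO and 99.4 TPM in Foxo1Ctrl (log2 fold change -0.015, adjusted p = 0.976). Sdc1 and Tnfrsf17, which were not tested, did not exceed 6 counts in any library. The lower RNA of Igkc, Ighm, Jchain and Mzb1 had the direction of the loss of Prdm1, and its part in that difference was not tested. Of 5 germinal centre B cell markers, Gcsam and Rgs13 were at 0 in all libraries, and the sum was 0.39 to 1.08 TPM in Foxo1TKO and 1.04 to 1.52 TPM in Foxo1Ctrl.

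**Figure D4:**
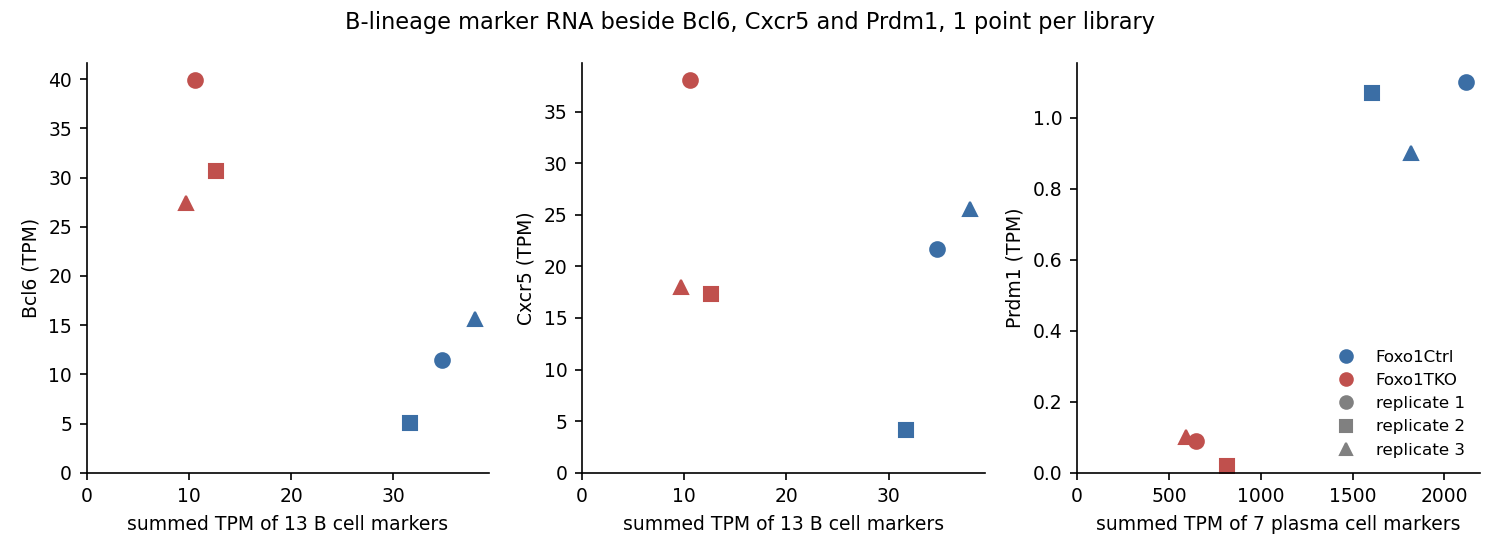
Levels of Bcl6, Cxcr5 and Prdm1 (y axis, TPM) in each library against the summed TPM of 13 B cell markers (left and middle) or 7 plasma cell markers (right). The Foxo1TKO libraries (red) have the lower marker sums, 9.70 to 12.7 TPM for B cells and 594 to 818 TPM for plasma cells, with higher Bcl6 and lower Prdm1 than the Foxo1Ctrl libraries (blue).

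Markers of further cell types were read in the same way. Of 8 macrophage markers, C1qa and C1qc were at 0 and the sum was 4.41 to 5.84 TPM in Foxo1TKO and 2.41 to 3.40 TPM in Foxo1Ctrl. Most of it was Cd68, at 4.17, 4.29 and 4.92 TPM in Foxo1TKO and 2.94, 2.37 and 2.37 TPM in Foxo1Ctrl. Cd68 was the only 1 of them tested and did not pass (log2 fold change 0.74, adjusted p = 0.0990). Cd14 went the other way, at 0, 0 and 0 counts in Foxo1TKO and 7, 1 and 7 in Foxo1Ctrl. Csf1r and Adgre1 did not exceed 4 counts, C1qb 5 counts and Lyz2 16 counts in any library. The 6 dendritic cell markers summed to a median of 10.1 TPM and 3.73 TPM, a difference carried by Itgax, which went from at most 1 count in Foxo1Ctrl to 414 to 469 counts in Foxo1TKO. Zbtb46 (log2 fold change -0.48, adjusted p = 0.272) and Xcr1 (0.44, adjusted p = 0.585) did not pass the test. Flt3, Siglech and Clec9a were too low to test. The 4 regulatory T cell markers summed to 32.6 to 50.5 TPM in Foxo1TKO and 34.8 to 47.2 TPM in Foxo1Ctrl, most of it Il2ra, which activated T cells also express. Lrrc32 was higher, at 210, 197 and 183 normalized counts against 86.3, 103 and 108 (log2 fold change 0.98, adjusted p = 0.0137), a call lost without Foxo1Ctrl replicate 1 or Foxo1TKO replicate 2 (adjusted p = 0.0656 and 0.0601) and with GC content corrected (adjusted p = 0.0510). Foxp3, the defining factor, did not overlap in the other direction, at 10.1, 14.8 and 6.39 against 15.4, 27.2 and 20.2 normalized counts, and did not pass the test (log2 fold change -0.93, adjusted p = 0.165). The 6 NK cell markers summed to 70.1 to 151 TPM in Foxo1TKO and 154 to 232 TPM in Foxo1Ctrl. Most of it was Klrk1 and Gzma. Of 4 tested, 1 was lower, beside 11.8% of all genes tested. It was Klrk1 (log2 fold change -1.06, adjusted p = 0.00836). Klrb1c (-0.68, adjusted p = 0.340), Gzma (-0.29, adjusted p = 0.754) and Klre1 (0.38, adjusted p = 0.551) overlapped between genotypes and did not pass. Ncr1, not tested, had 13, 6 and 2 counts in Foxo1TKO and 2, 3 and 7 in Foxo1Ctrl. Klra8 was at 0 in all libraries. The part of these cells in the results was not tested.

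The wider follicular programme was read from 7 lists with 86 genes in all, of which 75 were tested. In Foxo1TKO 9 rose and 22 fell, or 41.3% called beside 23.0% of all genes tested (11.1% higher and 11.8% lower). The median log2 fold change of the lists was -0.33, against 0.011 over all genes tested. Of these 31 calls, 20 held without any 1 library.

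The surface and cytokine genes that accompany Bcl6 in Tfh cells split in both directions. Of 16, 15 were tested, 2 were higher and 5 lower, with a median of -0.33, or 46.7% called beside 23.0% of all genes tested. Pdcd1, which encodes the inhibitory receptor PD-1 and is used with CXCR5 to define Tfh cells, went from 161, 126 and 260 normalized counts in Foxo1Ctrl to 6273, 3529 and 3268 in Foxo1TKO. The groups were far apart, and the log2 fold change was 4.57 (SE 0.38, adjusted p = 0.000227, edgeR). Cd200, an inhibitory ligand found on Tfh cells, rose by 1.78 (log2, SE 0.22, adjusted p = 0.00115).
Among the receptors through which Bcl6 is induced or stabilised, Il6ra and Icos fell, and Il21r and Il6st did not pass the test. Il6ra, the IL-6 binding chain, went from 370, 118 and 302 normalized counts in Foxo1Ctrl to 13.4, 5.22 and 12.8 in Foxo1TKO (log2 fold change -4.53, SE 0.54, adjusted p = 0.00107). Icos, the costimulatory receptor needed for Tfh maintenance, fell by 1.64 (SE 0.20, adjusted p = 0.00114), and Slamf6, which steadies the contact of T and B cells, fell by 3.72 (SE 0.19, adjusted p = 3.42e-05). Cd40lg, the ligand that activates B cells, fell by 0.76 (SE 0.19, adjusted p = 0.0231), but was not called without Foxo1Ctrl replicate 1, Foxo1TKO replicate 2 or Foxo1TKO replicate 3 (log2 fold changes -0.83 to -0.65, adjusted p = 0.0681 to 0.0933). The signalling chains behind the cytokine receptors did not pass the test: Il6st, the partner of Il6ra, had a log2 fold change of 0.48 (SE 0.26, adjusted p = 0.224) and Il21r, the receptor for IL-21, one of 1.48 (SE 0.50, adjusted p = 0.0650). Il21r passed with DESeq2 (adjusted p = 0.00855), without the filter on low counts (0.0132), with the replicate block (0.0158), with GC content corrected (0.0263) and with the block and that correction (0.0038), against a range of adjusted p of 0.0038 to 0.170 over all alternatives. Its libraries did not overlap, at 2478, 1007 and 894 normalized counts in Foxo1TKO and 702, 242 and 619 in Foxo1Ctrl. Il4, the other main cytokine of Tfh cells, had at most 6 counts in any library and was not tested.

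Among the transcription factors grouped with the Tfh fate, 13 of 14 were tested, 2 were higher and 5 lower (median -0.63). That is 53.8% called beside 23.0% of all genes tested. Tox rose by 1.80 (log2, SE 0.19, adjusted p = 0.000671), from 2018, 2008 and 2879 normalized counts to 7355, 7633 and 9076. Lef1, which acts upstream of Bcl6 together with TCF-1, went the other way, from 12288, 8662 and 9589 to 3434, 2669 and 2706 (log2 fold change -1.79, SE 0.19, adjusted p = 0.000639). Batf, an AP-1 factor that Tfh cells need for Bcl6 and Maf expression, fell by 1.25 (SE 0.17, adjusted p = 0.00206). These 3 calls held without any 1 library.
The remaining calls in this list were less firm. Id3 was counted among the lower genes, though it is not a factor that promotes the Tfh fate. It fell by 0.63 (SE 0.18, adjusted p = 0.0388) and kept its call in only 1 omission of a library. Irf4, the partner of Batf, fell by 1.13 (SE 0.29, adjusted p = 0.0271), a call lost without Foxo1Ctrl replicate 1 or 3 or Foxo1TKO replicate 1 or 3 (log2 fold changes -1.19 to -0.90, adjusted p = 0.0503 to 0.0887). Notch1 fell by 1.10 (SE 0.25, adjusted p = 0.0150), a call lost without Foxo1Ctrl replicate 1 or 3 or Foxo1TKO replicate 2 or 3 (-1.03 to -0.98, adjusted p = 0.0536 to 0.0744). Pou2af1, a coactivator also made by B cells, rose by 1.11 (SE 0.31, adjusted p = 0.0359), and kept its call only without Foxo1Ctrl replicate 3, the other 5 omissions giving 0.93 to 1.24 with adjusted p = 0.0664 to 0.117. Tcf7, which encodes TCF-1, had a log2 fold change of -0.72 (SE 0.27, adjusted p = 0.0864), and of -0.97 (adjusted p = 0.00276) without Foxo1Ctrl replicate 2. It also passed with DESeq2 (adjusted p = 0.0454), with GC content corrected (0.0309) and with the replicate block and that correction (0.0237). Stat3, the transducer of IL-6 and IL-21, had one of 1.07 (SE 0.41, adjusted p = 0.0992). It passed with DESeq2 (adjusted p = 0.0318), without the filter on low counts (0.0303), with the replicate block (0.0418) and with the block and the GC correction (0.0187), against a range of 0.0187 to 0.234 over all alternatives. Its exons overlap those of Stat5a on the opposite strand, within chr11:100885098-100885169.

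**Figure D5:**
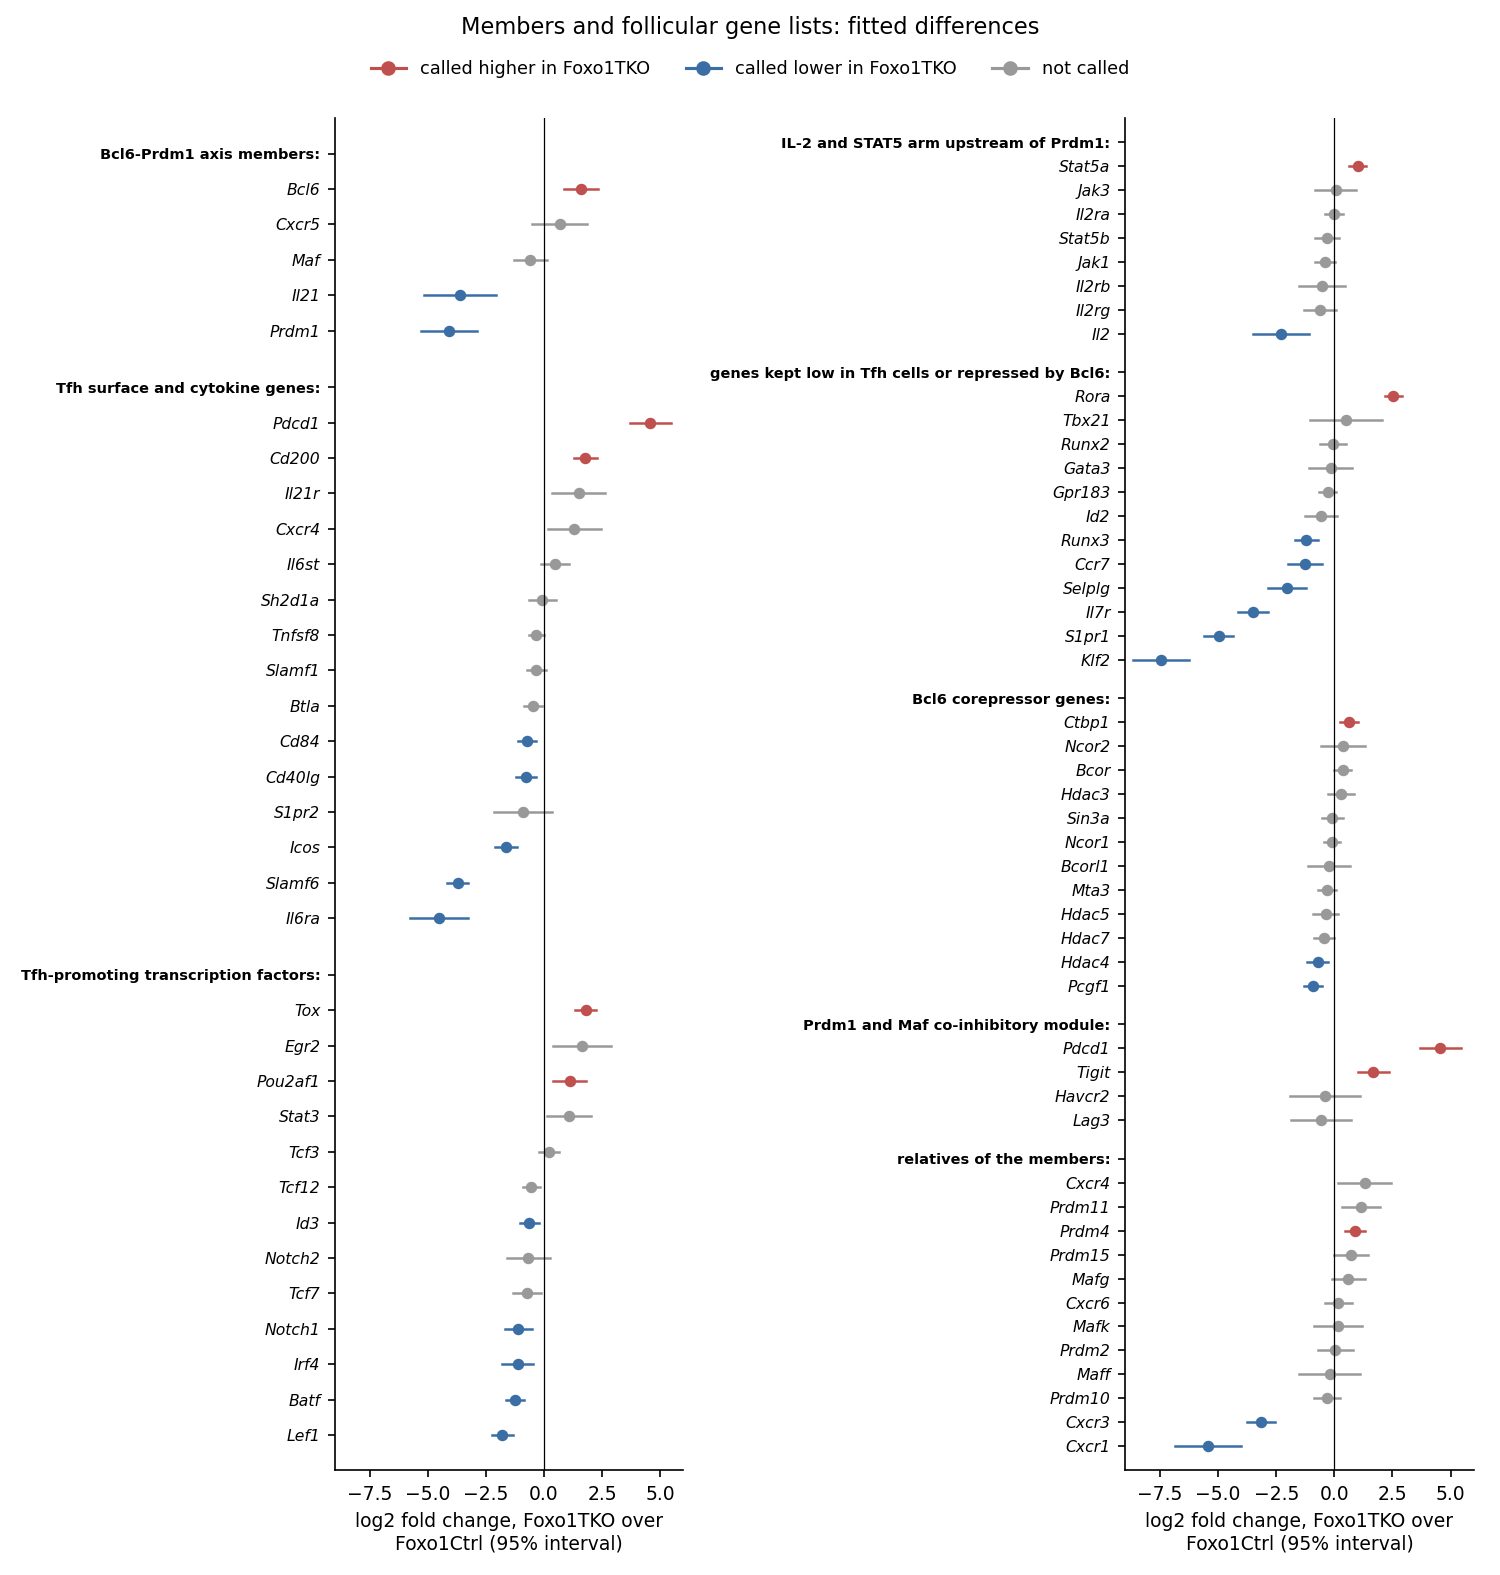
Fitted log2 fold change of Foxo1TKO over Foxo1Ctrl (x axis, point) with its 95% interval (line) for the tested genes of the axis and of the 7 follicular lists, except 1 gene not shown, coloured by call (red higher, blue lower, grey not called). Klf2 lies farthest to the left at -7.46 and Pdcd1 farthest to the right at 4.57, and the value of Cxcr1, which had 0 counts in all Foxo1TKO libraries, depends on the prior count of the fit.

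IL-2 acting through STAT5 is the known inducer of Prdm1 and antagonist of Bcl6. Of the 8 genes of this arm, all tested, 1 was higher and 1 lower (median -0.36), a share of 25% called that is near the 23.0% of all genes tested. Il2 itself went from 47.3, 79.4 and 31.7 normalized counts in Foxo1Ctrl to 5.87, 7.83 and 17.0 in Foxo1TKO (log2 fold change -2.28, SE 0.52, adjusted p = 0.0160), and lost its call without Foxo1TKO replicate 2 (-2.14, adjusted p = 0.0717). Stat5a rose by 1.01 (SE 0.16, adjusted p = 0.00313), with no overlap between 1072 to 1189 and 510 to 630 normalized counts. It shares only chr11:100885098-100885169, its end, with Stat3. Reads of Stat3 could be counted in that stretch if strand was not used, which the sources used here do not state. Il2rb, the signalling chain of the receptor, had a log2 fold change of -0.53 (SE 0.43, adjusted p = 0.415), and was called, at -1.19 (adjusted p = 0.0269), without Foxo1TKO replicate 1 and, at -0.75 (adjusted p = 0.0448), with the replicate block and the GC correction.

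Genes that are low in Tfh cells or that Bcl6 represses made up the next list. Of 13 genes, all tested, 7 fell and 1 rose, with a median of -1.21, or 61.5% called beside 23.0% of all genes tested. Klf2, a factor of T-cell egress that counteracts Bcl6, dropped from 545, 562 and 688 counts in Foxo1Ctrl to 7, 2 and 0 in Foxo1TKO (adjusted p = 0.000117, edgeR). The summed counts, scaled by the summed library sizes, differed by 236 times (exact binomial 95% interval 124 to 518, counting error only). S1pr1, the egress receptor, fell by 4.97 (log2, SE 0.27, adjusted p = 4.5e-05), and Il7r, the survival receptor of naive cells, by 3.49 (SE 0.28, adjusted p = 0.000191).
Klf2, S1pr1 and Il7r are also known targets of Foxo1 or of Klf2, so that the list is not a readout of Bcl6 alone. Id2 and Gpr183, whose repression by Bcl6 is well known, had log2 fold changes of -0.57 (SE 0.29, adjusted p = 0.206) and -0.29 (SE 0.16, adjusted p = 0.244). Id2 was called without Foxo1TKO replicate 1 (-0.92, adjusted p = 0.0446). Rora, the single gene of the list that rose, encodes a factor of the Th17 programme that Bcl6 is known to oppose. It went from 417, 431 and 471 normalized counts to 2213, 2706 and 2729 (log2 fold change 2.53, SE 0.16, adjusted p = 7.71e-05).

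The corepressors with which Bcl6 works were called about as often as all genes tested. Of 12 genes, all tested, 1 was higher and 2 lower (median -0.17), or 25% called beside 23.0%, and 7 had no overlap between genotypes, which was so for 42.7% of all genes. Pcgf1, a subunit of the BCOR complex, fell by 0.92 (SE 0.18, adjusted p = 0.00783) and held without any 1 library. Hdac4 fell by 0.71 (SE 0.19, adjusted p = 0.0326) and Ctbp1 rose by 0.64 (SE 0.17, adjusted p = 0.0275). Hdac4 kept its call only without Foxo1TKO replicate 3, the other 5 omissions giving -0.79 to -0.60 with adjusted p = 0.0552 to 0.120, and Ctbp1 lost its call without any 1 of the 6 libraries (0.55 to 0.72, adjusted p = 0.0357 to 0.0841). Bcor, the corepressor most tied to Tfh cells, had a log2 fold change of 0.36 (SE 0.16, adjusted p = 0.139).

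Prdm1 and Maf together are known to drive a module of inhibitory receptors and Il10 in T cells. Of its 7 genes here, 4 were tested, of which 2 were higher and the other 2 did not pass (median 0.64). That is 50.0% called beside 23.0% of all genes tested. Pdcd1 was one, with the values above. Tigit, an inhibitory receptor also found on Tfh cells, was the other, with 699, 1393 and 945 normalized counts in Foxo1Ctrl and 2431, 3429 and 3868 in Foxo1TKO (log2 fold change 1.68, SE 0.28, adjusted p = 0.00483). Pdcd1 and Tigit rose in the libraries in which Prdm1 had at most 7 counts, but the rest of the module did not rise with them. Lag3 had a log2 fold change of -0.57 (SE 0.56, adjusted p = 0.508) and Havcr2 one of -0.40 (SE 0.65, adjusted p = 0.697). Il10 was at 1 to 11 counts in every library and was not tested. Pdpn (0, 0 and 0 counts in Foxo1TKO, 4, 1 and 4 in Foxo1Ctrl) and Procr (0, 1 and 0 against 6, 0 and 6) were too low to test.

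Relatives of the axis genes were examined for the same pattern. Of 18, 12 were tested, 1 was higher and 2 lower (median 0.16), or 25% called, near the 23.0% of all genes tested. Prdm4 was the only one of the 5 Prdm1 relatives tested that was called. It rose by 0.89 (log2, SE 0.18, adjusted p = 0.0101), and lost its call without Foxo1Ctrl replicate 1 or Foxo1TKO replicate 2 (0.80 to 0.85, adjusted p = 0.0504 to 0.0590). Among chemokine receptors, Cxcr3, which guides Th1 cells, fell by 3.17 (SE 0.26, adjusted p = 0.000208), from 3807, 3198 and 2908 normalized counts to 487, 354 and 258. Cxcr1, a receptor better known from neutrophils, had 48, 37 and 29 counts in Foxo1Ctrl and 0 in each Foxo1TKO library, at least 15.2-fold lower when each Foxo1TKO library is set to its floor of 3 counts. The 5 neutrophil markers, all too low to test, did not fall with it. They summed to 5.47, 3.74 and 0.28 TPM in Foxo1TKO and 0.31, 0 and 0 TPM in Foxo1Ctrl.

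The genes whose pattern over the 6 libraries was most like each member were listed as a description, among tested genes whose mean reached 100 normalized counts. By Pearson's r of log2 normalized counts, Bcl6 was followed most closely by Cmtm7 (0.997) and Ppan (0.997), and Prdm1 by BC051226 (0.998) and Lbr (0.996). Il21 was closest to 0610009E02Rik (0.996) and Serpina3f (0.996). For Cxcr5 the closest genes were Smg5 (0.999) and Adprhl2 (0.998), and for Maf they were Pdcd7 (0.999) and Zfp273 (0.993). None of these genes is on the follicular lists. The 6 points share 2 genotypes and the base composition of the libraries, so that they are not independent.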

How the data were processed

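RNA-seq was analysed for 3 Foxo1TKO and 3 Foxo1Ctrl libraries, grouped by the genotype and replicate number in their labels. The authors used STAR 2.7.6a for alignment to GRCm38 and RSEM 1.3.1 for counting, and deposited expected counts, TPM and FPKM per gene, together with a table of normalized signal made with DESeq2. Per the labels and methods, reads with up to 10 loci were kept. Strandedness is not given in the sources used here. Exons of Cxcr5, Il21, Maf and Bcl6 overlap genes on the opposite strand, of which Bcl9l, beside Cxcr5, had the most counts (14 to 59).

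Expected counts were rounded. The 13691 genes that reached 10 counts in 3 or more libraries were tested with edgeR 4.0.16 in R 4.3.3 (TMM, glmQLFit and glmQLFTest, prior count 1), genotype as the only term and Benjamini-Hochberg adjustment over all genes tested. Every adjusted p in the text is from this test or a named alternative. The SE is the log2 fold change divided by the root of F. The script was tested on simulated data. Deposited TPM (scaled by effective length) was used for levels between genes, deposited FPKM and normalized signal for alternatives. Alternatives were DESeq2 1.42.0, limma 3.58.1, other scalings and filters, effective length, a replicate block, omission of each library, and a GC correction added after the data were seen. Floors and intervals cover counting error only.

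The members, gene lists and motifs were chosen with earlier results of these data known. Genes named from a list are its called genes with the largest change, at most 4 in each direction, and genes set against them or taken from marker lists, which were chosen after their values were seen. The values of 1 gene are not reported here, though counts over its list include it. Gene positions are from GENCODE M21 and promoter sequences from RefSeq. Neither the labels nor the methods say whether T cells were separated from splenocytes before RNA extraction, and they differ on the number of T cells cultured and the lymph nodes used.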

Additional observations from a re-analysis of the deposited data

How the results depend on the processing

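All 5 tested members kept their direction and their side of the threshold under each of 18 alternatives. With all libraries, log2 fold changes ran from 1.57 to 1.69 for Bcl6, from -4.56 to -2.20 for Prdm1, from -4.57 to -2.25 for Il21, from -0.71 to -0.44 for Maf and from 0.49 to 0.88 for Cxcr5. The smallest sizes for Prdm1 and Il21 came with a pseudocount of 10 on the deposited signal, which exceeds their Foxo1TKO values. The log2 difference in the Bcl6 to Prdm1 ratio ran from 5.84 to 6.58 in other units and from 5.20 to 6.44 with 1 library left out. The number of genes called over the transcriptome was 3144, 3011 to 3694 under alternatives with all libraries, and 1854 to 3321 with 1 library left out, lowest without Foxo1TKO replicate 2 (1854, of which 1834 were among the 3144) and without Foxo1Ctrl replicate 1 (2031, of which 2000 were). With 1 library left out, calls among the transcription factors went from 7 to between 3 and 7, among the IL-2 and STAT5 genes from 2 to between 1 and 3, and among the corepressors from 3 to between 1 and 2, where they were also 1 with effective lengths as offset and 1 with limma on the deposited signal and a pseudocount of 1. Of 720 values of 40 further genes (Foxo1 and most of those named from the lists, without Id3), 660 kept their side of the threshold, 43 lost a call, 17 gained one and none changed sign. Whether the replicate numbers pair the libraries is not settled. Correlations of same-numbered deviations were 0.433, 0.198 and -0.110. Foxo1TKO replicates 1 and 2 correlated best with the control of their own number, and Foxo1TKO replicate 3 with Foxo1Ctrl replicate 2 (0.301). With 3 libraries per genotype, these values cannot decide whether the libraries are paired. With the replicate block 3318 genes were called, and no member changed its call (Cxcr5 at 0.87, adjusted p = 0.145, against 0.0907 to 0.709 over its alternatives). With the block and the GC correction 3622 genes were called, and Cxcr5 was at 0.80 (adjusted p = 0.0907). Depth limits Prdm1 and Il21 in Foxo1TKO, where 0 to 7 counts fix a direction and a large size but no exact fold, and Ascl2, for which a level under 3 counts per library could not be seen.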
